A study of Mus musculus with 19 samples.

Results

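The genes of Polycomb repressive complex 2 (PRC2) were followed in mouse pluripotent stem cells. They are the 9 genes Ezh1, Ezh2, Eed, Suz12, Rbbp4, Jarid2, Aebp2, Mtf2 and Phf19, taken by symbol from the 23420 genes of the deposited count tables. PRC2 places methyl groups on lysine 27 of histone H3, a mark of silent developmental genes. Ezh1 and Ezh2 are its alternative catalytic subunits, Eed reads the mark, Suz12 is the scaffold of the core, and Rbbp4 is a histone-binding protein that other chromatin complexes also use. Jarid2 and Aebp2 define one form of the complex, and Mtf2 and Phf19, both Polycomb-like proteins, belong to the other. In embryonic stem cells PRC2 occupies many CpG-rich promoters of developmental regulators and is needed for orderly differentiation more than for self-renewal.

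RNA was sequenced from 14 libraries of induced pluripotent stem cells (iPSC), 3 of embryonic stem cells (ESC) and 2 of epiblast stem cells (EpiSC). The iPSC were reprogrammed from embryonic fibroblasts by lentiviruses carrying Oct4, Sox2, Klf4 and Myc, which remained in the genome, and each iPSC library is 1 clone in 1 medium, depleted of feeder fibroblasts. The study asked whether iPSC of strains that do not readily reach the ESC-like state resemble ESC or EpiSC when inhibitors of GSK3B and MEK are added to medium with serum, a condition called 2iS. ESC are naive cells and EpiSC are primed cells of a later embryonic stage.

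The iPSC in 2iS were 2 male and 2 female clones of NOD/ShiLtJ, 2 male and 2 female clones of WSB/EiJ, and 2 male clones of 129S1/SvImJ. The iPSC in the standard medium with serum and the cytokine LIF (ESC/LIF) were the same 2 male clones of 129S1/SvImJ at an earlier passage and 2 female clones of that strain. The ESC were male lines of NOD/ShiLtJ, WSB/EiJ and 129S1/SvImJ grown with both inhibitors. The EpiSC were male lines of NOD/ShiLtJ and 129/Sv in their own medium, so state and medium cannot be told apart in comparisons with EpiSC. The ESC and EpiSC lines were provided by other laboratories, while the iPSC were made in the study. By the titles, the ESC were also at an earlier passage than all iPSC. State and laboratory of origin therefore cannot be told apart in any comparison of states, nor state and passage between iPSC and ESC. All 129S1/SvImJ clones were reprogrammed in ESC/LIF, and the NOD/ShiLtJ and WSB/EiJ clones in 2iS. Strain and reprogramming medium therefore go together in all iPSC.

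In 17 libraries, those other than NOD/ShiLtJ male iPSC, 92996 to 226794 read pairs were counted on genes, only 1.15% to 1.74% of the uniquely aligned read pairs, and in the NOD/ShiLtJ male iPSC 430173 to 567432 read pairs (5.59% to 5.62%). Genes with exons that lie across those of an opposite-strand gene held 61.3% to 76.8% of the counts in the 17 libraries and 38.3% to 38.8% in the NOD/ShiLtJ male iPSC, while such genes make up 24.6% of the annotated genes. The NOD/ShiLtJ male iPSC are therefore described apart, and the state comparisons use the other 12 iPSC. The labels of each sample name conflicting conditions, and the titles were used: counts of genes of Chromosome Y were 5 to 106 in the 13 libraries titled male and 0 in the 6 titled female. Xist, the RNA of the inactive X chromosome, did not separate the sexes: it had 2 and 14 counts in the male EpiSC but 593, 610 and 596 in the male ESC, at least 115 in both NOD/ShiLtJ male iPSC and 118 to 531 in the female libraries. Tsix, which is transcribed across Xist on the opposite strand, had 0 to 80 counts in the 17 libraries. Which strand the counts of each library come from was not tested, so they may not all be RNA of the named gene. Naive genes, such as Tfcp2l1 and Esrrb, summed to 1261 to 1848 CPM in ESC and 1560 to 2516 CPM in the 12 iPSC. In EpiSC they summed to 36.0 to 63.0 CPM (CPM, where each count is divided by its TMM-adjusted library total). The sum includes Klf4, which the lentiviruses of the iPSC also carry. Of the 13 naive genes, 9 were tested, and all 9 were higher in ESC and in iPSC than in EpiSC. Of all genes tested, 6.85% were higher in ESC and 11.2% higher in iPSC than in EpiSC. Klf4, Esrrb, Zfp42 and Dppa5a had 0 counts in EpiSC and entered the test only through the ESC and iPSC. The 9 calls are therefore a description of the groups. Primed genes separated the states less: they summed to 278 to 847 CPM in ESC, 117 to 532.5 CPM in the 12 iPSC and 812.5 to 1099 CPM in EpiSC. Of 5 primed genes tested, 4 were lower and 1 higher in iPSC than in EpiSC. Between ESC and EpiSC, 2 were lower and 1 higher in ESC.

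Levels of the 9 genes spanned from hardly detected to 664 CPM, on few read pairs. A detection floor of 3 counts corresponds to 14.3 to 33.9 CPM in the 17 libraries and 4.15 to 5.27 CPM in the NOD/ShiLtJ male iPSC, and covers counting error only. Of the 9 members, 7 had enough counts to be tested, with 2 to 122 read pairs per library in the 17 libraries. Ezh1 and Phf19 did not pass the filter on low counts in any comparison. The 9 genes together took 0.151% to 0.184% of gene counts in the 3 ESC, 0.122% to 0.159% in the 12 iPSC and 0.0527% to 0.0738% in the 2 EpiSC, so the EpiSC lay below every other library.

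**Figure D1:**
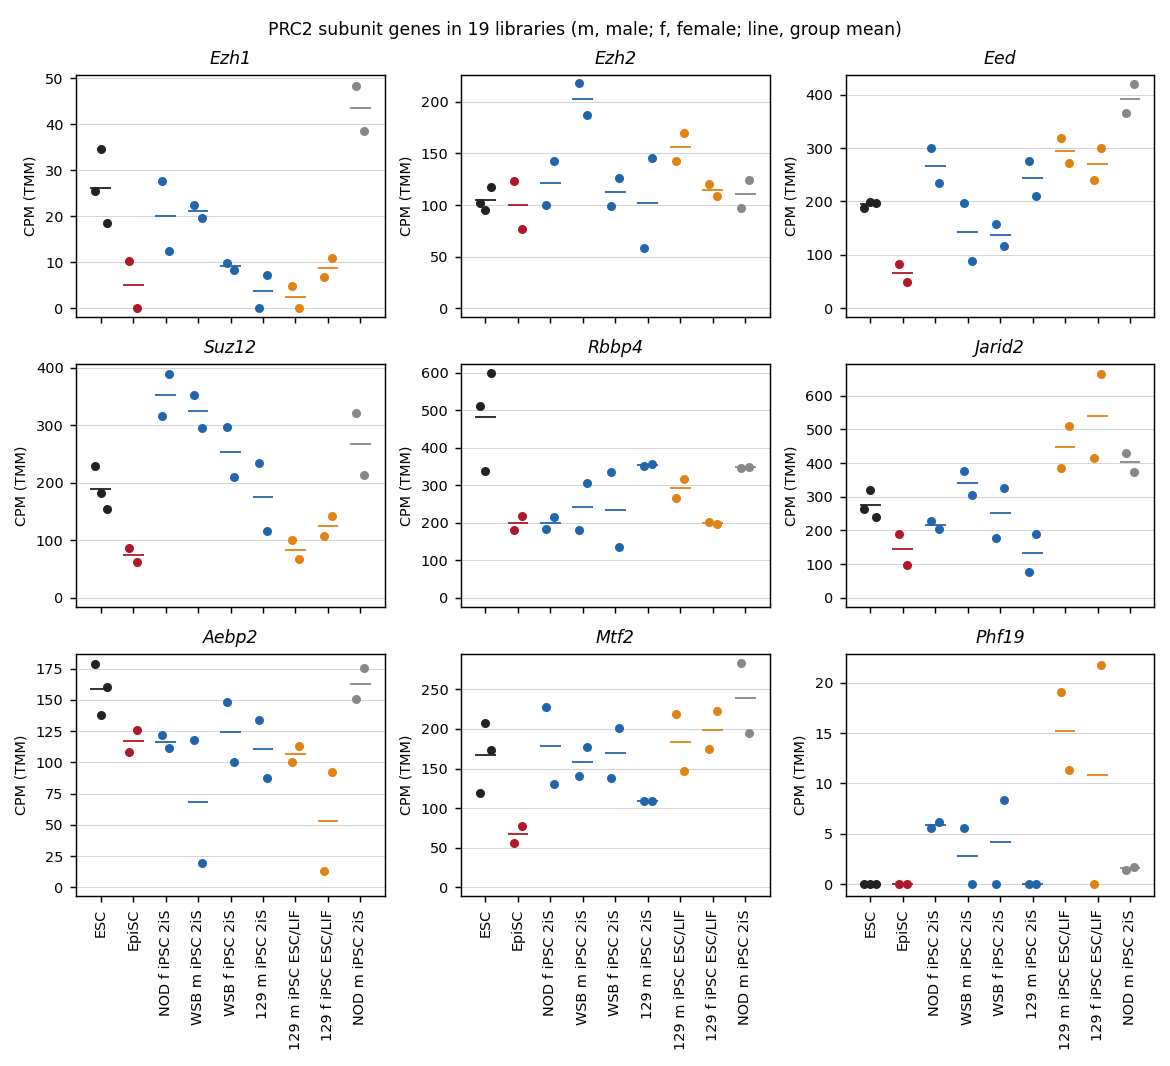
CPM (vertical axis) of each PRC2 gene in all 19 libraries, grouped by cell state, strain, sex and medium. Each point is 1 library and each line a group mean. The 2 EpiSC sit lowest for Eed (49.0 and 82.3 CPM) and Mtf2 (56.6 and 77.0 CPM). For Rbbp4 the mean of the ESC is the highest group mean, though not every ESC library is above the iPSC. Phf19 stays at or below 21.8 CPM.

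Levels were also divided by exon length, in CPM per kilobase of exon. The mean over the 17 libraries was highest for Eed at 52.7 ± 21.2 CPM per kb (SD, n = 17). Suz12 followed at 39.8 ± 21.08, Rbbp4 at 32.9 ± 14.2, Jarid2 at 30.1 ± 15.3 and Mtf2 at 27.1 ± 9.05 CPM per kb. Ezh2 reached 18.8 ± 5.97, Aebp2 11.2 ± 4.33, Ezh1 1.73 ± 1.38 and Phf19 0.909 ± 1.39 CPM per kb. Neighbours in this order from Eed to Ezh2 differed by less than the larger of their SDs, and so did Ezh1 and Phf19. The order differed by state, and 12 of the 17 libraries are iPSC: Rbbp4 was highest in ESC (55.2 ± 15.3 CPM per kb, n = 3, against 50.8 ± 1.66 for Eed) and in EpiSC (22.7 ± 2.99, n = 2, against 17.2 ± 6.15), while in iPSC Eed had 59.1 ± 19.4 and Rbbp4 29.0 ± 8.87 (n = 12). Over the 17 libraries, the steps from Ezh2 to Aebp2 and from Aebp2 to Ezh1 were larger than the SD of either gene. The exons of Eed, Suz12, Rbbp4, Mtf2 and Ezh2 overlap exons of opposite-strand genes over 174 to 1578 bases. Jarid2, Aebp2, Ezh1 and Phf19 have no such overlap. Which strand the counts come from was not tested, so this is an order of counts per exon length only.

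Of the catalytic subunits, Ezh2 was detected in every library and Ezh1 hardly at all. Ezh1 (chromosome 11, 101191115 to 101226463, minus strand, GRCm38) had 0 to 5 read pairs in each of the 17 libraries, 32 in all. It had 3, 4 and 3 read pairs in the NOD/ShiLtJ, WSB/EiJ and 129S1/SvImJ ESC and 2 and 0 in the NOD/ShiLtJ and 129/Sv EpiSC. In the NOD/ShiLtJ male iPSC it had 35 and 22 read pairs (48.4 and 38.6 CPM). Its level in the other libraries was thus at or near the floor, where a difference between states was not detectable at this depth.

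Ezh2 (chromosome 6, 47530139 to 47595341, minus strand) passed the threshold between no cell states. It measured 102, 95.02 and 117 CPM in the NOD/ShiLtJ, WSB/EiJ and 129S1/SvImJ ESC, and 123 and 77.0 CPM in the NOD/ShiLtJ and 129/Sv EpiSC. In the 12 iPSC it ranged from 58.7 to 219 CPM with a median of 134 CPM, so the iPSC spanned both other states. Tested with edgeR's quasi-likelihood test, at a Benjamini-Hochberg adjusted p under 0.05 over all genes, the log2 fold change was 0.26 (SE 0.302, adjusted p = 0.68) for iPSC over ESC and 0.34 (SE 0.347, adjusted p = 0.494) for iPSC over EpiSC. The 95% intervals of these log2 fold changes, -0.37 to 0.89 and -0.38 to 1.06, cover changes of up to 1.06 on the log2 scale. Such p-values measure the spread between these libraries, and the 12 iPSC libraries come from 10 clones, since both 129S1/SvImJ male clones were sequenced in each medium. With these clones in ESC/LIF only, so that each clone counted once, the calls of Eed, Mtf2 and Rbbp4 described in the following were kept, and Suz12 and Jarid2 passed as well for iPSC over EpiSC. For ESC over EpiSC, Ezh2 had a log2 fold change of 0.08 (SE 0.42, adjusted p = 0.924). The highest values, 219 and 187 CPM, were those of the WSB/EiJ male clones 12 and 25.

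The comparison of each state with EpiSC addressed whether naive and primed cells differ in these genes. Of the 7 members tested, Eed and Mtf2 were higher in iPSC than in EpiSC, and Eed, Mtf2 and Rbbp4 were higher in ESC than in EpiSC. None was lower. Of all genes tested, 28.3% passed the threshold between iPSC and EpiSC (11.2% higher in iPSC), and 15.1% between ESC and EpiSC (6.85% higher in ESC). The median log2 fold change of the 7 members was 1.06 for iPSC over EpiSC against 0.10 for all 3986 genes, and 1.31 for ESC over EpiSC against 0.06. Both comparisons use the same 2 EpiSC libraries and are not independent of each other. Fewer cells of a type and less RNA per cell cannot be told apart in such bulk samples.

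Eed (chromosome 7, 89954654 to 89980983, minus strand) measured 187, 199 and 198 CPM in the NOD/ShiLtJ, WSB/EiJ and 129S1/SvImJ ESC, on 22 to 32 read pairs each. It measured 82.3 CPM in the NOD/ShiLtJ EpiSC (16 read pairs) and 49.0 CPM in the 129/Sv EpiSC (7 read pairs). In the 12 iPSC it ranged from 88.8 to 319 CPM with a median of 238 CPM. Every ESC and iPSC library was above both EpiSC libraries, the lowest of them being WSB/EiJ male clone 25 at 88.8 CPM. Eed was 3.22-fold higher in iPSC than in EpiSC (log2 1.69, SE 0.398, adjusted p = 0.00298) and 2.94-fold higher in ESC (log2 1.56, SE 0.45, adjusted p = 0.0223). Without the 129/Sv EpiSC the log2 differences were 1.43 (adjusted p = 0.0715) and 1.29 (adjusted p = 0.191), no longer past the threshold. The gene E230029C05Rik overlaps the first 261 bases of Eed on the opposite strand and had 0 counts in every library.

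Mtf2 (chromosome 5, 108065674 to 108109004, plus strand), the Polycomb-like protein that guides PRC2 to unmethylated CpG islands, measured 119, 207 and 173 CPM in the 3 ESC in the same order. It measured 56.6 and 77.0 CPM in the NOD/ShiLtJ and 129/Sv EpiSC, on 11 read pairs each. The 12 iPSC ranged from 109 to 227 CPM with a median of 160.5 CPM. All ESC and iPSC libraries were above both EpiSC. The log2 fold change was 1.26 for iPSC over EpiSC (2.39-fold, SE 0.346, adjusted p = 0.00913) and 1.34 for ESC over EpiSC (2.53-fold, SE 0.396, adjusted p = 0.0253). Without the NOD/ShiLtJ EpiSC these were 1.00 (adjusted p = 0.148) and 1.07 (adjusted p = 0.172). The call between ESC and EpiSC was also lost without the 129/Sv EpiSC (adjusted p = 0.0702) and without the WSB/EiJ or 129S1/SvImJ ESC (adjusted p = 0.0656 and 0.063). Tmed5, whose exons overlap 395 bases near the end of Mtf2 on the opposite strand, had 0 to 10 read pairs per library.

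The promoters of Eed and Mtf2 are shown because these are the genes that were higher in both naive states. The windows run from 250 bases before to 50 bases after the start, from RefSeq on GRCm38.p6, 5′ to 3′ on the strand of the gene, with each CG in capitals. The first is at chr7:89980927-89981226 on the minus strand and the second at chr5:108065424-108065723 on the plus strand.
Eed: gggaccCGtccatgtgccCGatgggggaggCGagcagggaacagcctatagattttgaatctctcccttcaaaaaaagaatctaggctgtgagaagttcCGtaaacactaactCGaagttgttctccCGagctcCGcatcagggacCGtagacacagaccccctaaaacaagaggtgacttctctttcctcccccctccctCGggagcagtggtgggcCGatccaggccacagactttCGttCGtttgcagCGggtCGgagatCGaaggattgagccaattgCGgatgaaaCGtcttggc
Mtf2: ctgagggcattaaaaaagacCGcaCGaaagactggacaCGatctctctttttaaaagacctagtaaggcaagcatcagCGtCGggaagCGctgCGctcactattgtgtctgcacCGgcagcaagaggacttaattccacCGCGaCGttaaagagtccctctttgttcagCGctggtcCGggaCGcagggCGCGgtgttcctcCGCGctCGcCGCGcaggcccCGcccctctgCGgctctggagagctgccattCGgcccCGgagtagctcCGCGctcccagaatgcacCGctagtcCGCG
The letters CG, which read the same on both strands, occurred 17 times in the window of Eed and 30 times in that of Mtf2. The median of 32851 such windows was 7, and 68.6% of them held fewer than Eed and 88.3% fewer than Mtf2. This count describes the sequence and was not related to the expression values. A second annotated window of Mtf2 held 2.

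Suz12 (chromosome 11, 79993106 to 80034123, plus strand) did not pass the threshold between states. It measured 229.8, 181 and 154.5 CPM in the NOD/ShiLtJ, WSB/EiJ and 129S1/SvImJ ESC and 87.4 and 63.0 CPM in the NOD/ShiLtJ and 129/Sv EpiSC. The ESC values were all above those of EpiSC. The 12 iPSC ran from 67.8 to 389.9 CPM and overlapped the EpiSC. The log2 fold change was 1.46 for iPSC over EpiSC (SE 0.554, adjusted p = 0.0522) and 1.32 for ESC over EpiSC (SE 0.632, adjusted p = 0.164). Jarid2 gave a log2 fold change of 1.06 for iPSC over EpiSC (SE 0.498, adjusted p = 0.113) and 0.93 for ESC over EpiSC (SE 0.572, adjusted p = 0.29). Both genes passed for iPSC over EpiSC when libraries were scaled to aligned read pairs in place of gene counts, with adjusted p = 0.0128 for Suz12 and 0.0255 for Jarid2.

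That scaling moved all genes. The median log2 fold change of all genes rose from 0.10 to 0.62 for iPSC over EpiSC, from 0.06 to 0.29 for ESC over EpiSC and from 0.05 to 0.34 for iPSC over ESC. The share of calls that were higher moved from 39.7% to 76.9% and from 45.4% to 62.8% in the comparisons with EpiSC. For iPSC over ESC the 40 higher and 208 lower genes became 197 and 129 (60.4% higher). Relative to the median of all genes, the members moved little: the log2 difference of Eed from that median was 1.59 with gene counts and 1.56 with aligned read pairs for iPSC over EpiSC, and that of Mtf2 was 1.16 and 1.19. Between states, the sign changed for values that did not pass, those of Aebp2 for iPSC over EpiSC (-0.34 and 0.20) and of Mtf2 for iPSC over ESC (-0.08 and 0.20). The call of Rbbp4 between iPSC and ESC was lost (log2 -0.75, adjusted p = 0.0804).

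**Figure D2:**
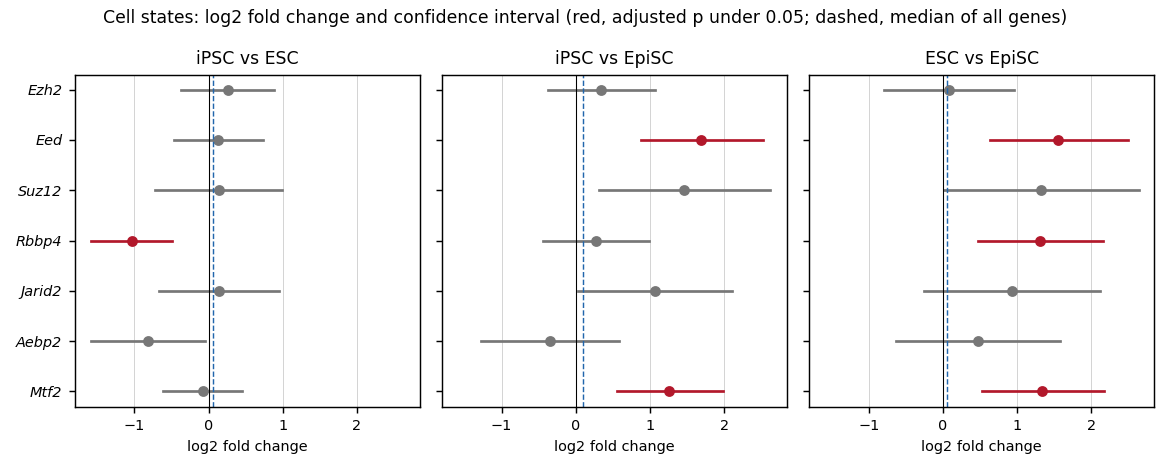
Log2 fold change (horizontal axis) with its 95% interval for the 7 PRC2 genes tested, in 3 comparisons of cell states from 1 edgeR fit of 12 iPSC, 3 ESC and 2 EpiSC. Red marks an adjusted p under 0.05 and the dashed line the median of all genes. Eed and Mtf2 lie above 1 in both comparisons with EpiSC, and Rbbp4 lies at -1.04 for iPSC over ESC and 1.31 for ESC over EpiSC.

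The comparison of iPSC with ESC addressed whether reprogrammed cells match embryo-derived naive cells. Of the 7 members tested, 1 was lower in iPSC, Rbbp4, and none was higher, against 6.22% of all genes past the threshold (5.22% lower in iPSC). The median of the 7 was 0.13, against 0.05 for all genes. Eed, Suz12, Jarid2 and Mtf2 had log2 fold changes between -0.08 and 0.14, and their widest 95% interval, that of Suz12, was -0.72 to 0.99. Aebp2 had a log2 fold change of -0.81 (SE 0.373, adjusted p = 0.226).

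Rbbp4 (chromosome 4, 129307100 to 129335370, minus strand) measured 511, 337 and 599.6 CPM in the NOD/ShiLtJ, WSB/EiJ and 129S1/SvImJ ESC. It measured 180.0 and 217 CPM in the NOD/ShiLtJ and 129/Sv EpiSC, and 134 to 356 CPM in the 12 iPSC, with a median of 242 CPM. The WSB/EiJ ESC lay within the range of the iPSC and the other ESC above it. Rbbp4 was 2.05-fold lower in iPSC than in ESC (log2 -1.04, SE 0.262, adjusted p = 0.0184) and 2.48-fold higher in ESC than in EpiSC (log2 1.31, SE 0.407, adjusted p = 0.0334), and its log2 fold change for iPSC over EpiSC was 0.27 (SE 0.344, adjusted p = 0.582). The call between iPSC and ESC was lost without the NOD/ShiLtJ ESC (log2 -1.01, adjusted p = 0.105) or the 129S1/SvImJ ESC (-0.82, adjusted p = 0.168), and with the 8 iPSC in 2iS alone (-0.98, adjusted p = 0.0574). The call between ESC and EpiSC was lost without either of these ESC (adjusted p = 0.0567 and 0.109) or either EpiSC (0.164 without NOD/ShiLtJ and 0.11 without 129/Sv).

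The summed level of a list of 20 fibroblast genes was also higher in ESC than in the 12 iPSC. It was 1966 to 2862 CPM in ESC, 355 to 1065 CPM in the 12 iPSC, which were depleted of feeders, and 211 and 1190 CPM in the 2 EpiSC. The NOD/ShiLtJ male iPSC, also depleted of feeders, had 2996 and 4205 CPM, with 4.15 CPM or less of Col1a1. Fn1 made up much of the sum, with means of 1059 ± 134 CPM in ESC and 504 ± 216 CPM in the 12 iPSC (SD). Col1a1, a collagen of fibroblasts, had 272 to 396 CPM in ESC and 0 to 29.7 CPM in iPSC. Of the 5 fibroblast genes tested, 3 were lower in iPSC than in ESC, Col1a1, Col5a1 and Tnc. The part of such cells in the difference of Rbbp4 was not tested. The exons of Rbbp4 overlap those of Sync and of a noncoding gene on the opposite strand over 1578 of 8744 bases, at its 3′ end, and Sync measured 136 to 181 CPM in ESC, 72.1 to 256 CPM in the 12 iPSC and 217 to 381 CPM in EpiSC. In a fit of genes without opposite-strand exons, which holds Jarid2 and Aebp2 among the members tested and leaves out Eed, Mtf2, Rbbp4, Suz12 and Ezh2 by its construction, 0 members passed in any of the 3 state comparisons.

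Aebp2 (chromosome 6, 140622663 to 140678472, plus strand), a zinc finger protein of the Jarid2 form, measured 179, 138 and 161 CPM in the NOD/ShiLtJ, WSB/EiJ and 129S1/SvImJ ESC and 108 and 126 CPM in the NOD/ShiLtJ and 129/Sv EpiSC. The 12 iPSC ranged from 13.4 to 148 CPM with a median of 106 CPM. The lowest, 129S1/SvImJ female clone 5 in ESC/LIF and WSB/EiJ male clone 25 in 2iS, had 2 read pairs each. Its log2 fold change was -0.34 for iPSC over EpiSC (SE 0.448, adjusted p = 0.598) and 0.47 for ESC over EpiSC (SE 0.533, adjusted p = 0.592). Phf19 (chromosome 2, 34893757 to 34914026, minus strand) had 0 read pairs in all 3 ESC and both EpiSC and 0 to 4 in the 12 iPSC. The highest were 4 read pairs in 129S1/SvImJ male clone 1 and female clone 8, both in ESC/LIF. A count of 0 allows up to 15.4 to 25.9 CPM in the ESC and EpiSC libraries.

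Within iPSC, the largest change of a member with medium was that of Jarid2 (chromosome 13, 44729474 to 44921643, plus strand), a DNA-binding cofactor that recruits PRC2. The 2 male 129S1/SvImJ clones were sequenced in ESC/LIF and again after later passages in 2iS, so medium and passage cannot be told apart. In clone 1, Jarid2 measured 386 CPM in ESC/LIF (81 read pairs) and 75.4 CPM in 2iS (9 read pairs). In clone 17 it measured 509 CPM in ESC/LIF (45 read pairs) and 189 CPM in 2iS (26 read pairs). It was lower in 2iS in both clones, and the libraries of the media did not overlap. Jarid2 was 3.03-fold lower in 2iS (log2 -1.60, SE 0.361, adjusted p = 0.00574), with 1 of the 7 members tested past the threshold against 4.10% of all genes (2.77% lower in 2iS). With the clone as a block the log2 fold change was -1.70 (adjusted p = 0.0106). Without clone 1 in 2iS it was -1.13 and no longer past the threshold (adjusted p = 0.227).

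The female 129S1/SvImJ clones 5 and 8 in ESC/LIF had 415 and 664 CPM of Jarid2, so all 4 libraries in ESC/LIF were above all 8 iPSC in 2iS other than NOD/ShiLtJ males, which ranged from 75.4 to 375.5 CPM with a median of 216 CPM. The NOD/ShiLtJ male clones 3 and 35, also in 2iS, had 430 and 374 CPM, and clone 3 was above 2 of the 4 libraries in ESC/LIF. Only 129S1/SvImJ cells were grown in ESC/LIF. Jarid2 measured 264, 319.6 and 241 CPM in the NOD/ShiLtJ, WSB/EiJ and 129S1/SvImJ ESC and 190.3 and 98.0 CPM in the NOD/ShiLtJ and 129/Sv EpiSC, within the range of the iPSC. The other 6 members tested did not pass between media. Suz12 had the next largest log2 fold change, 1.05 higher in 2iS (SE 0.403, adjusted p = 0.173), with 235 against 100.1 CPM in clone 1 and 116 against 67.8 CPM in clone 17. Mtf2 had -0.72 (SE 0.384, adjusted p = 0.413), Ezh2 -0.46, Eed -0.21, Aebp2 0.16 and Rbbp4 0.40 (adjusted p = 0.67 to 0.943). Of the naive genes, 3 of 9 tested were higher in 2iS, Tfcp2l1, Klf4 and Tbx3, in the same libraries.

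**Figure D3:**
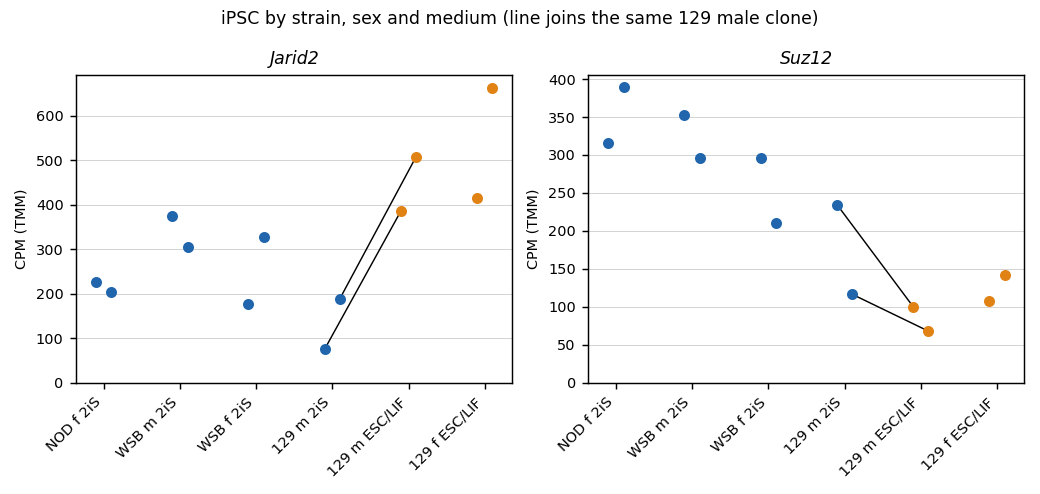
CPM (vertical axis) of Jarid2 and Suz12 in the 12 iPSC by strain, sex and medium. Blue points are libraries in 2iS and orange points libraries in ESC/LIF, and lines join the same 129S1/SvImJ male clone. Both lines for Jarid2 rise from 2iS to ESC/LIF, 75.4 to 386 and 189 to 509 CPM, and both lines for Suz12 fall.

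Strains were compared in matched sex and final medium. The 129S1/SvImJ male clones in 2iS had been reprogrammed in ESC/LIF and were at later passages than the WSB/EiJ male clones. For every gene compared between these clones, strain, reprogramming medium and passage cannot be told apart. Between male iPSC in 2iS, Jarid2 was 2.45-fold higher in WSB/EiJ (375.5 and 306 CPM in clones 12 and 25) than in 129S1/SvImJ (75.4 and 189 CPM), with no overlap (log2 1.29, SE 0.369, adjusted p = 0.0311). It was the 1 member of 7 tested that passed, against 5.05% of all genes (3.07% higher in WSB/EiJ). The value shares its 129S1/SvImJ libraries with the comparison of media. It no longer passed without WSB/EiJ clone 12 (log2 1.16, adjusted p = 0.258) or 25 (1.36, adjusted p = 0.0588), without 129S1/SvImJ clone 1 (0.79, adjusted p = 0.459), or by DESeq2 (1.29, adjusted p = 0.174). Suz12 had a log2 fold change of 0.86 (SE 0.332, adjusted p = 0.139) and Ezh2 one of 0.91 (SE 0.395, adjusted p = 0.208). Eed had -0.73, Rbbp4 -0.66, Aebp2 -0.54 and Mtf2 0.45 (adjusted p = 0.261 to 0.673).

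The values of Suz12 were mostly higher in iPSC of NOD/ShiLtJ and WSB/EiJ than of 129S1/SvImJ. This is given as a description since it was noticed in these values. It measured 316 and 389.9 CPM in the NOD/ShiLtJ female clones, 353 and 296 CPM in the WSB/EiJ male clones and 296.5 and 209.7 CPM in the WSB/EiJ female clones. In 129S1/SvImJ it measured 235 and 116 CPM in 2iS and 67.8 to 141.5 CPM in the 4 libraries in ESC/LIF. The 6 iPSC of the strains reprogrammed in 2iS were thus at or above 209.7 CPM and 5 of the 6 of 129S1/SvImJ at or below 141.5 CPM. The other, male clone 1 in 2iS at 235 CPM, lay above WSB/EiJ female clone 28 at 209.7 CPM. Since 4 of the 6 libraries of 129S1/SvImJ are in ESC/LIF, strain and medium cannot be told apart in this description. In the ESC, Suz12 of 129S1/SvImJ (154.5 CPM) was also the lowest of the 3.

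Between NOD/ShiLtJ and WSB/EiJ female iPSC in 2iS, 0 of 7 members passed by edgeR or DESeq2, against 3.98% of all genes, and 1 had an unadjusted p under 0.05. That gene was Eed, with 299.5 and 235 CPM in NOD/ShiLtJ and 158 and 117 CPM in WSB/EiJ (log2 0.86, SE 0.35, adjusted p = 0.201). The others ran from -0.35 for Jarid2 and -0.31 for Rbbp4, through -0.18 for Aebp2, -0.04 for Mtf2 and -0.02 for Ezh2, to 0.39 for Suz12. Between female and male iPSC, averaged over WSB/EiJ in 2iS and 129S1/SvImJ in ESC/LIF, 0 of 7 passed by either tool, against 1.68% of all genes, and 1 had an unadjusted p under 0.05. That gene was Ezh2, at a log2 fold change of -0.57 (SE 0.28, adjusted p = 0.384). The others ran from -0.21 for Rbbp4, through -0.08 for Eed, -0.06 for Aebp2, 0.006 for Jarid2 and 0.12 for Suz12, to 0.17 for Mtf2. The medians of the members, -0.04 and -0.06, were close to those of all genes, 0.004 and 0.007. A test of the sex difference in WSB/EiJ against that in 129S1/SvImJ passed for 0 of the 7 members by edgeR, with 1 (Aebp2) at an unadjusted p under 0.05 (adjusted p from 0.757 for Aebp2 to 0.992 for Eed).

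The NOD/ShiLtJ male iPSC had the most read pairs on genes, though not the most aligned read pairs, and the median gene was 2.66 higher on the log2 scale when scaled to aligned read pairs. Scaled to gene counts, 2 of the 7 members tested were higher than in the other 12 iPSC, Eed and Aebp2, against 60.5% of all genes past the threshold (32.4% higher). Eed measured 365 and 419 CPM in clones 3 and 35, above all 12 others (log2 0.69, adjusted p = 0.00166). Aebp2 measured 151 and 175.5 CPM, also above all 12 (log2 0.63, adjusted p = 0.0391). The call for Aebp2 was lost without clone 3 or 35, without WSB/EiJ male clone 25 or female clone 23 or 28, and without 129S1/SvImJ male clone 1 in ESC/LIF, male clone 17 in 2iS or female clone 5 (adjusted p over all left-out libraries 0.00272 to 0.227), and neither gene passed by DESeq2, whose Wald test gave 0 members. The other 5 had log2 fold changes of -0.40 for Ezh2, 0.31 for Suz12, 0.32 for Jarid2, 0.35 for Rbbp4 and 0.39 for Mtf2, around the median of all genes of 0.23.

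Scaled to aligned read pairs, all 7 members tested were higher in the NOD/ShiLtJ male iPSC, as were 3595 of all 4457 genes tested, with 142 lower. The members were higher by 2.03 for Ezh2 to 3.13 for Eed on the log2 scale, around that median of 2.66. Of all calls, 96.2% were higher, against 53.5% with gene counts. Relative to the median of all genes, Eed was 0.46 and 0.47 higher under the 2 scalings and Ezh2 lay at -0.63 and -0.62, with Ezh2 itself past the threshold only with aligned read pairs. The 9 genes took 0.251% to 0.260% of the gene counts of these libraries, the largest share of any group. No other libraries share this depth on genes, so library making and counting on the one hand and the strain and sex of these clones on the other cannot be told apart.

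**Figure D4:**
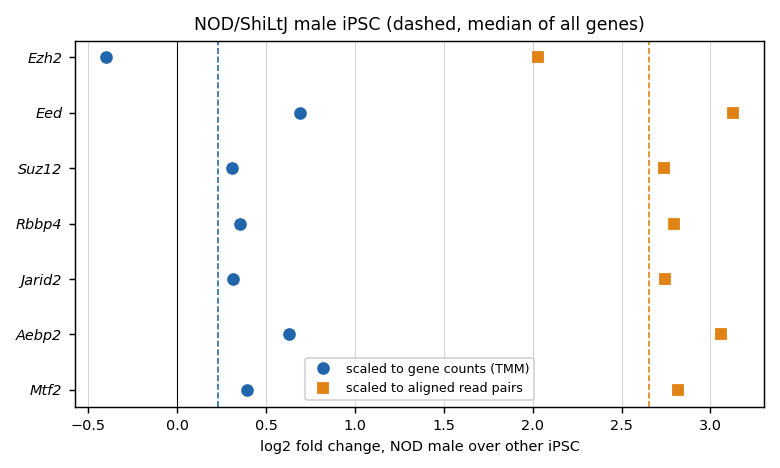
Log2 fold change (horizontal axis) of the 7 PRC2 genes tested in NOD/ShiLtJ male iPSC over the other iPSC, scaled to gene counts (circles) or to aligned read pairs (squares), with the median of all genes under each scaling as a dashed line. The members sit around the median under both, from -0.40 to 0.69 and from 2.03 to 3.13, Ezh2 lowest and Eed highest.

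The gene whose levels over the 17 libraries were most like those of Jarid2, the member with the highest median count, was Sall1, a zinc finger transcription factor, with Pearson r = 0.868 of log2 CPM among 3985 genes. Others with a high correlation were Nav2 (0.777), 4930444M15Rik (0.776) and AU015836 (0.766). Among these genes the order depended on the measure: Spearman's rho was 0.868 for 4930444M15Rik and 0.836 for Sall1. These values are a description over 17 libraries that share strains, clones and a range of depths. Sall1 had 0 and 14.5 CPM in the 129S1/SvImJ male clones in 2iS, 62.0 and 102 CPM in the same clones in ESC/LIF, and 109 and 114 CPM in the female clones in ESC/LIF.

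Further genes of Polycomb biology were read from lists. Of the other PRC2 genes, 3 were tested between states, and 1 passed: Epop, listed under its older symbol E130012A19Rik, which encodes a PRC2 partner of the Polycomb-like form. It had 13 read pairs in the 2 EpiSC together, at 51.4 and 21 CPM, against 136 to 298 CPM in the 3 ESC and 134 to 695 CPM in the 12 iPSC. It was higher in iPSC than in EpiSC (log2 3.38, SE 0.653, adjusted p = 5.37e-04) and in ESC than in EpiSC (log2 2.65, SE 0.708, adjusted p = 0.0135), with no overlap between the groups. It was also higher in WSB/EiJ than in 129S1/SvImJ male iPSC in 2iS (671 and 695 against 134 and 269 CPM, log2 1.68, adjusted p = 3.12e-04). Of all genes tested, 11.2%, 6.85% and 3.07% were higher in these comparisons, in the same order. Rbbp7, the paralog of Rbbp4, had log2 fold changes of 0.69 for iPSC over ESC (adjusted p = 0.338) and 0.47 for iPSC over EpiSC (adjusted p = 0.441).

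Of the 24 genes of Polycomb repressive complex 1, which binds the mark and ubiquitinates histone H2A, 7 were tested. Between states 0 passed by edgeR, against 6.22%, 28.3% and 15.1% of all genes for iPSC over ESC, iPSC over EpiSC and ESC over EpiSC. In the same order, 1 (Phc1), 1 (Pcgf2) and 0 had an unadjusted p under 0.05. Between WSB/EiJ and 129S1/SvImJ male iPSC in 2iS, 2 of the 7 tested were higher in WSB/EiJ, against 3.07% of all genes. They were Phc1 (log2 1.24, adjusted p = 0.0144) and Pcgf2 (log2 1.31, adjusted p = 0.0308). Of the 7 demethylases and deubiquitinase genes that act against these marks, 3 were tested and 0 passed by edgeR between states, with 0 at an unadjusted p under 0.05. The MLL/COMPASS complexes and their partners act on lysine 4 of histone H3. Of 7 such genes tested, 3 were higher in iPSC than in EpiSC, against 11.2% of all genes. They were Ash2l (log2 1.26, adjusted p = 0.0058), Dpy30 (2.22, adjusted p = 0.0143) and Wdr5 (1.37, adjusted p = 0.0202). Dpy30 had only 4 and 0 read pairs in the NOD/ShiLtJ and 129/Sv EpiSC and 4, 5 and 4 in the ESC. It thus passed the filter on low counts only through the iPSC. Wdr5 had 10 and 6 read pairs in these EpiSC. Kdm5b, which demethylates that lysine, was lower in iPSC than in ESC (log2 -0.87, adjusted p = 0.032) and, with Ash2l, higher in ESC than in EpiSC. Of all genes, 5.22% were lower in iPSC than in ESC and 6.85% higher in ESC than in EpiSC. In the NOD/ShiLtJ male iPSC, where 32.4% of all genes were higher than in the other iPSC with gene counts, this held for 2 of 4 other PRC2 genes tested (Epop, log2 0.86, and Tceb2, 1.46) and 5 of 8 PRC1 genes, led by Cbx7 (1.48), L3mbtl2 (1.41), Phc1 (0.77) and Kdm2b (0.71). It also held for 2 of 5 genes that act against the marks (Asxl1, 0.95, and Bap1, 0.85) and 10 of 11 MLL/COMPASS genes, led by Ncoa6 (1.65), Mll2 (1.38), Rbbp5 (1.55) and Mll3 (1.14).

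Genes that PRC2 is known to bind in embryonic stem cells had few read pairs, and at this depth silent genes cannot be told from genes of low level. Of 56 such genes, among them the Hox genes, Gata4, Pax6 and Sox17, 0 had enough counts to be tested in any comparison. They held 174 read pairs in the 17 libraries together, on 36 of the genes, of which Eomes had 52. Scaled to gene counts as CPM without TMM, the sum over the 56 genes was 118 to 240 in EpiSC, 104 to 130 in ESC and 6.74 to 62.7 in the 12 iPSC. These sums rest on 72, 44 and 58 read pairs, and the difference between groups was not tested. Of 17 genes of dividing cells tested, 1 was higher in iPSC than in EpiSC (Mcm5), against 11.2% of all genes. Between ESC and EpiSC, 0 of them passed by edgeR, against 15.1% of all genes, with 2 at an unadjusted p under 0.05.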

How the data were processed

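RNA libraries of 14 iPSC, 3 ESC and 2 EpiSC were made with a stranded mRNA kit. The authors trimmed the read pairs, aligned them to GRCm38 with TopHat2 2.1.1 and deposited raw counts of read pairs per gene from HTSeq, by symbol; the strand setting of the counting is not given in the sources used here. The counts were used as deposited. Groups follow the sample titles. The members and gene lists were chosen with earlier results of these data known.

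In R 4.3.3, edgeR 4.0.16 (TMM, filterByExpr, glmQLFit, glmQLFTest) was fitted to 17 libraries in 3 states (3986 genes tested), 12 iPSC in 6 groups (3388 genes) or 14 iPSC in 7 groups (4457 genes). DESeq2 1.42.0 was an alternative. An SE is the log2 fold change without prior count divided by the square root of F. CPM used TMM factors over all 19 libraries. No pair of libraries held identical counts. Positions, exon lengths and opposite-strand overlaps come from GENCODE M21 on GRCm38, in which 23062 of the 23420 symbols were matched. The models were tested on simulated data.

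The 7 members tested are named in every comparison. From the Polycomb and MLL/COMPASS lists, genes past the threshold are named, at most 4 per comparison, and marker lists are given by counts and examples. For Jarid2, the 5 genes with the highest correlation were chosen, of which 1 is not reported here. Genes that overlap a member are named as well. Rbbp7 and the genes with an unadjusted p under 0.05 were named after their values were seen.

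The 2 male 129S1/SvImJ clones were in both media. The numbers pair these samples, since the same number is the same clone, although the correlation of their deviations from the group means was only 0.0666 over 2160 genes. The alternatives were DESeq2 and its size factors, no filter or 10 counts in every library, aligned read pairs as library size, genes without opposite-strand exons, strain as a covariate, part of the iPSC, the groups of the source names, the clone as a block and leaving out libraries in turn. The iPSC in 2iS alone were added after seeing the data.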

Additional observations from a re-analysis of the deposited data

How the results depend on the processing

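The number of PRC2 genes past the threshold rested on few read pairs, and no alternative reversed a direction among the calls. For iPSC over ESC (1 gene), 0 passed with aligned read pairs as library size, among genes without opposite-strand exons, with male iPSC only, with iPSC in 2iS only (chosen after seeing the data) and with the groups of the source names. For iPSC over EpiSC (2 genes), 4 passed with no filter on low counts, with aligned read pairs and without the 129S1/SvImJ iPSC in 2iS, 1 with at least 10 counts in every library, and 0 among genes without opposite-strand exons and with the source names. For ESC over EpiSC (3 genes), 0 passed among genes without opposite-strand exons and with the source names. For 2iS over ESC/LIF (1 gene) and WSB/EiJ over 129S1/SvImJ males (1 gene), 0 passed with at least 10 counts in every library, which removed Jarid2 from the test, and for the latter also 0 with DESeq2. For NOD/ShiLtJ male iPSC (2 genes), 7 passed with aligned read pairs, where 3595 of all 4457 genes tested were higher. With the size factors of DESeq2 1 passed, and 0 with its Wald test and among genes without opposite-strand exons. That last set leaves out Eed, Mtf2, Rbbp4, Suz12 and Ezh2 by its construction. Other causes were not tested.

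Leaving out libraries in turn gave 0 to 1 genes for iPSC over ESC, 1 to 1 for iPSC over EpiSC, 0 to 2 for ESC over EpiSC, 0 to 1 for 2iS over ESC/LIF, 0 to 1 for WSB/EiJ over 129S1/SvImJ males, 0 to 0 for both comparisons without a call, and 1 to 3 for NOD/ShiLtJ male iPSC. In the state comparisons only the ESC and EpiSC libraries of the groups compared were left out, in 3, 2 and 5 fits. No iPSC was left out there, so how these calls depend on single iPSC libraries was not tested. Where 1 library was left in a group, it was assumed to vary like the other groups. With the clone as a replicate block in the 4 libraries of the medium comparison, 1 gene passed, again Jarid2 (log2 -1.70, adjusted p = 0.0106), as without the block (-1.57, adjusted p = 1.3e-05), with 102 genes called in all against 192, so the pairing changed no call of a member. Jarid2 between media passed in 10 of 11 alternatives, from -2.44 to -1.13 on the log2 scale. Eed for iPSC over EpiSC passed in 9 of 11 and Mtf2 in 10 of 12, and Rbbp4 for iPSC over ESC in 7 of 13.

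Counts of all genes called moved as well. For iPSC over ESC, 248 genes were called in the fit used, 600 with no filter, 45 with at least 10 counts in every library, 110 without opposite-strand genes and 0 with the source names. For iPSC over EpiSC the 448 higher and 681 lower genes became 1874, 364, 387 and 10 in all. For ESC over EpiSC, 601 became 216 with at least 10 counts, 169 without opposite-strand genes and 0 with the source names. With at least 10 counts, without opposite-strand genes and with DESeq2, the 139 genes of the media became 38, 64 and 47, the 171 of WSB/EiJ against 129S1/SvImJ 91, 65 and 65, the 135 of NOD/ShiLtJ against WSB/EiJ 52, 63 and 43, the 57 between sexes 32, 18 and 17, and the 2698 of NOD/ShiLtJ males 959, 713 and 1580. With aligned read pairs, the share of calls that were higher moved from 45.9% to 25.8% for NOD/ShiLtJ over WSB/EiJ females and from 68.4% to 82.5% for female over male iPSC, whose medians of all genes moved to -0.20 and 0.10 on the log2 scale. In the 17 libraries other than NOD/ShiLtJ males, the tested members had only 2 to 122 read pairs and Ezh1 and Phf19 0 to 5. Phf19 had 1 read pair in each NOD/ShiLtJ male library, which held more counts on genes.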
